A study of Mus musculus with 16 samples.

Results

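The genes described here are the 35 genes of glucose breakdown that carry glucose into the cell, along glycolysis to pyruvate and lactate, and through the pentose phosphate pathway, together with the kinases that hold pyruvate dehydrogenase in check. They were found by gene symbol among the 41325 genes of the deposited count tables. 34 of the symbols matched a row exactly, and Aldoa was taken from the row numbered as its first copy, which held 99.9% of the counts of both Aldoa rows. All 35 had enough counts to be tested in every comparison. The RNA came from a wild type C57Bl6/J line of immortalized mouse preadipocytes, precursor cells that turn into fat cells in culture. The 16 libraries form 4 groups of 4. IL13_day6 and untreated_day6 are cells at day 6 of differentiation with and without a 16 h pre-treatment with interleukin-13 (IL-13), and IL13_day0 and untreated_day0 are cells at day 0 with and without the same pre-treatment. The labels do not say whether the 4 libraries of a group are separate cultures. The p-values therefore speak for the scatter among these libraries, which may be only technical.

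Glycolysis splits glucose into pyruvate in the cytosol and yields ATP and NADH, and it is paced at hexokinase, phosphofructokinase and pyruvate kinase. Lactate dehydrogenase turns pyruvate into lactate and regenerates NAD+, whereas the pyruvate dehydrogenase complex sends it into mitochondria as acetyl-CoA, which in fat cells feeds citrate export and fatty acid synthesis. The pentose phosphate pathway draws glucose-6-phosphate off before glycolysis and makes NADPH, the reducing agent of fatty acid synthesis, and ribose for nucleotides. Glycolysis also supplies the glycerol phosphate backbone of stored triglyceride.

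The libraries held between 15253031 and 18112087 counts. The 35 genes took 3.32 to 4.05% of the counts in IL13_day6, 3.18 to 3.63% in untreated_day6, 1.23 to 1.47% in IL13_day0 and 1.14 to 1.36% in untreated_day0 libraries. The 8 adipocyte markers checked, among them Adipoq and Fabp4, summed to 20576 to 21948 CPM in IL13_day6, 19259 to 21456 in untreated_day6, 217 to 229.8 in IL13_day0 and 189.7 to 207 in untreated_day0. CPM is a library's count of a gene scaled to a common library size. The 8 preadipocyte markers summed to 376 to 453 CPM in IL13_day6, 391 to 489 in untreated_day6, 1285 to 1341 in IL13_day0 and 1188 to 1275 in untreated_day0. The 6 macrophage markers summed to 2.22 to 3.35 CPM in IL13_day6, 1.42 to 2.49 in untreated_day6, 5.24 to 7.48 in IL13_day0 and 2.77 to 4.20 in untreated_day0, with Adgre1 at 0 in every library. The 4 skeletal muscle markers summed to 2.16 to 5.02 CPM in IL13_day6, 2.26 to 3.36 in untreated_day6, 3.20 to 4.69 in IL13_day0 and 5.46 to 8.18 in untreated_day0, with Ckm at 0. At day 0 the sums of adipocyte, preadipocyte and macrophage markers were thus higher in IL-13 pre-treated than in untreated libraries, without overlap. That of muscle markers was lower, also without overlap. At day 6 all 4 of these sums overlapped. The sum of 4 endothelial markers overlapped at both days. It was 0.669 to 1.24 CPM in IL13_day6, 0.696 to 1.07 in untreated_day6, 2.91 to 3.32 in IL13_day0 and 2.59 to 3.28 in untreated_day0. Of the macrophage markers, Csf1r averaged 4.46 CPM in IL13_day0 and 1.60 in untreated_day0, and Cd68 1.42 and 1.46. By the edgeR test described below, 2 of 4 tested adipocyte markers were higher at day 0 and 1 lower. Of 7 tested preadipocyte markers 4 were higher, of 2 macrophage markers 1, and the 1 tested muscle marker was lower. Of 2 tested endothelial markers 0 passed. Pparg averaged 93.6 CPM in IL13_day0 and 62.8 in untreated_day0, Fabp4 103 and 109, and Cebpa 16.6 and 23.3. The part of these markers in the IL-13 results was not tested. In bulk RNA, fewer cells of a type and less RNA per cell cannot be told apart. Untreated libraries had a higher nuclear RNA index, the mean level of 22 nuclear-retained RNAs and splicing factor transcripts. This index was 5.18 ± 0.251 log2 CPM in IL13_day6 and 6.14 ± 0.297 in untreated_day6. At day 0 it was 4.70 ± 0.0984 in IL13_day0 and 5.49 ± 0.345 in untreated_day0 (SD, n = 4 each). The exact two-sided permutation p was 0.0286 at each day, the smallest that 4 against 4 libraries allow. The 22 genes were chosen with earlier results of these data known, so this p is no independent support. The index moves with IL-13 at both days. More nuclear RNA in a library and a change in the expression of these genes cannot be told apart. The part of the index in the IL-13 results below was not tested. Untreated libraries called richest in nuclear RNA below are those with the highest index.

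Day 6 was compared with day 0 to see how the pathway differed once the cells had differentiated, separately in IL-13 pre-treated and in untreated cells. Of the 35 genes, 29 rose and 4 fell in IL-13 pre-treated cells, where 40.6% of all tested genes rose and 40.3% fell. In untreated cells 29 rose and 4 fell as well, against a background of 41.5% and 39% of tested genes. A gene is counted when its adjusted p was under 0.05 in edgeR's quasi-likelihood test with Benjamini-Hochberg adjustment over all tested genes. Rises of 2-fold or more were found in 26 of the 35 genes in each arm, where 20.7% of all tested genes in IL-13 pre-treated and 20.9% in untreated cells rose that far. Rises of 4-fold or more were found in 14 in each arm, against 9.85% of tested genes in IL-13 pre-treated and 9.88% in untreated cells. Falls of 2-fold or more were found in 2 genes, Hk1 and Eno2, in each arm, against 18.4% of tested genes in IL-13 pre-treated and 17.8% in untreated cells. The median log2 fold change of the 35 genes was 1.72 in IL-13 pre-treated cells, where that of all tested genes was 0.0012, and 1.56 in untreated cells, where that of all tested genes was 0.038. The same 29 genes rose in both arms, and no library of a day 6 group overlapped the matching day 0 group for any of them (37.3% of tested genes in IL-13 pre-treated and 38.8% in untreated cells were higher without overlap). Another 4 genes in each arm were lower without overlap, against 37.4% and 36.6% of tested genes. All 29 stayed higher whichever library was left out. The days are in separate deposited tables, so a difference between days and one between tables cannot be told apart.

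**Figure D1:**
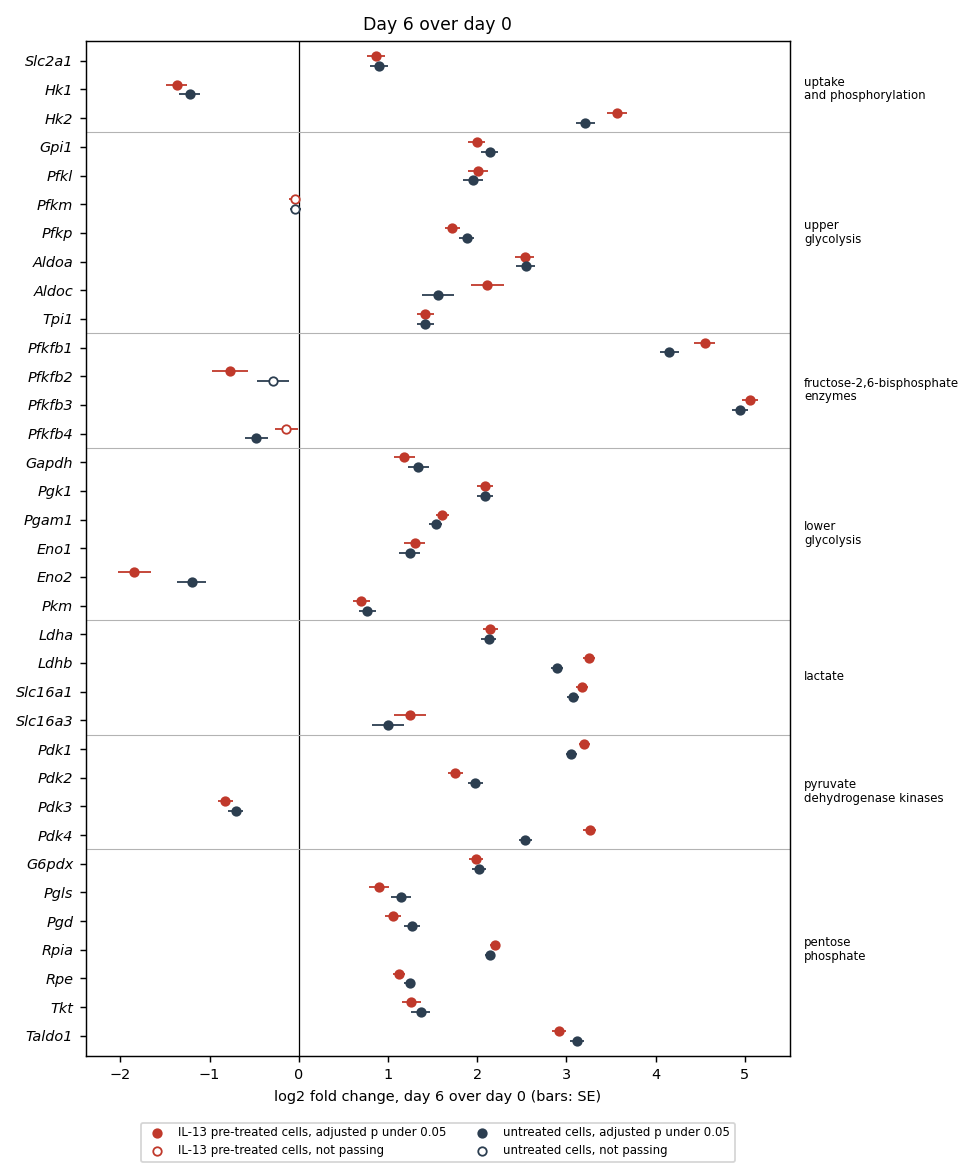
Log2 fold change of each of the 35 genes, day 6 over day 0, in IL-13 pre-treated cells (red) and untreated cells (dark blue), with the standard error as a bar and filled points for an edgeR adjusted p under 0.05; horizontal lines part the steps of the pathway. Points lie right of 0 for 29 genes in both arms, up to 5.06 for Pfkfb3, and left of 0 with a filled point in both arms for Hk1, Eno2 and Pdk3.

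Because most of these genes rose together, their promoters were searched for ACGTG, the core of the element bound by hypoxia-inducible factors, on both strands (as ACGTG or CACGT), in RefSeq windows of 300 bases, 250 before and 50 after each annotated start (GRCm38.p6). The core was present in at least 1 window of 18 of the 35 genes (51.4%), and in 21.8% of the 27025 genes with a window. The 27025 were counted whether or not they were expressed here. They were not matched to the 35 for level or base content. Genes with several starts have several windows: 22 of the 55 windows of the 35 genes held it, against 19.6% of all 32851 windows. CACGTG, the E-box bound by factors such as Myc and ChREBP, contains the core on both strands and is therefore counted in both searches. CACGTG was found in 6 of the 35 genes and in 8.09% of all genes, and GGGCGG, the GC box of Sp1, on both strands, in 28 of the 35 genes and in 38.2% of all genes. Among the 29 genes that rose in both arms 14 held the core, and among the 6 that did not it was found in 4, Hk1, Pfkm, Pfkfb2 and Pdk3. Of the 12 genes that rose 4-fold or more in both arms, Hk2, Aldoa, Pfkfb3, Pgk1, Ldha and Slc16a1 held it, and Pfkfb1, Ldhb, Pdk1, Pdk4, Rpia and Taldo1 did not. Both the genes that rose and the others thus included some with the core and some without it. With only 6 genes in the second set and windows of 300 bases, no conclusion is drawn on the core. A match says only that the letters are there. The 250 bases before the start follow, 5′ to 3′ on the gene's strand with ACGTG on either strand in capitals. They are shown for 3 genes that rose 4-fold or more and hold the core, for Pdk1 and Taldo1, which rose as far without it, and for Pdk3, which holds it and fell. Ldha (chr7:46845554-46845803, + strand) has 3 places, 2 of them CACGTG. Pgk1 (chrX:106186850-106187099, + strand) has 2 and Hk2 (chr6:82774455-82774704, - strand) has 2. Pdk1 is shown from chr2:71872974-71873223, + strand, Taldo1 from chr7:141391910-141392159, + strand, and Pdk3, with 1 place, from chrX:93832151-93832400, - strand.
Ldha: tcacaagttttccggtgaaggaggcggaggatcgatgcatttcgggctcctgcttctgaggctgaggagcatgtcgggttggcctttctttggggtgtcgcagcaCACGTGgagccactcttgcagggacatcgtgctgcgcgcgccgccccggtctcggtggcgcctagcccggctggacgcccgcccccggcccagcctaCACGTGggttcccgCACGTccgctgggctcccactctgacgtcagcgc
Pgk1: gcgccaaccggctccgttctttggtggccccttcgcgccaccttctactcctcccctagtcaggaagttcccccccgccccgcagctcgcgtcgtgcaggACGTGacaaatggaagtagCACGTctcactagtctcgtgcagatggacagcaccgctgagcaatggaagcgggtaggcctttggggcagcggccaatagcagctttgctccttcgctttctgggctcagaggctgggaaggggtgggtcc
Hk2: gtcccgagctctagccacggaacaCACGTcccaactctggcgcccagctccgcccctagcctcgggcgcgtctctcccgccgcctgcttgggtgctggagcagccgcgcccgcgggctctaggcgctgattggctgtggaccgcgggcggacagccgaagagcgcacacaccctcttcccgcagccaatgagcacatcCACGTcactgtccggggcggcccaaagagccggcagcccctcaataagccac
Pdk1: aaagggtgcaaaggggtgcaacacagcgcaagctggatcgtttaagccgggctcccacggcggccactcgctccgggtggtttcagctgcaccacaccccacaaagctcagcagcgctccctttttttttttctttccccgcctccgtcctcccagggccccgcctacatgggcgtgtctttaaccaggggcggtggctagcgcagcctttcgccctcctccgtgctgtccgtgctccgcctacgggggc
Taldo1: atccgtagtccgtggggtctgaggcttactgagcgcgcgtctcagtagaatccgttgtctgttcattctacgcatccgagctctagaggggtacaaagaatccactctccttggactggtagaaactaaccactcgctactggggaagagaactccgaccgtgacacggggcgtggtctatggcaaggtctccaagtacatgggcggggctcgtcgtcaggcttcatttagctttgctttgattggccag
Pdk3: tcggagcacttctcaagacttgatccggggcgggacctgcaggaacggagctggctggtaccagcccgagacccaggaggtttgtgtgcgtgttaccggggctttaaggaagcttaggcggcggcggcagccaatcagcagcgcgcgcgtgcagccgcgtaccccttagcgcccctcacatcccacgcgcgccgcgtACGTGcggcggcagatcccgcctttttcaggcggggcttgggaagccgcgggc

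At the entry of glucose, the hexokinases moved in opposite directions between the days. Hk2 (ENSMUSG00000000628, chromosome 6, 82725025 to 82774454), the insulin-responsive hexokinase of fat and muscle, was at 188, 182, 151 and 197 CPM in the 4 IL13_day6 libraries and 205, 203, 204 and 216 CPM in untreated_day6. At day 0 it was at 15.6, 17.5, 10.7 and 16.9 CPM in IL13_day0 and 22.0, 21.5, 22.5 and 23.2 CPM in untreated_day0. Every day 6 library was higher than every day 0 library. Hk2 thus rose 11.8-fold in IL-13 pre-treated cells (log2 fold change 3.56, SE 0.11, edgeR adjusted p = 1.08e-16) and 9.26-fold in untreated cells (log2 fold change 3.21, SE 0.11, edgeR adjusted p = 3.01e-16). Hk1 (ENSMUSG00000037012, chromosome 10, 62268855 to 62379908), the hexokinase found in most tissues, fell: it was at 94.1, 143, 111 and 121 CPM in IL13_day6 and 76.0, 94.1, 103 and 109.5 CPM in untreated_day6. The day 0 levels were 302, 309, 321 and 280.2 CPM in IL13_day0 and 204, 222, 260.3 and 209.5 CPM in untreated_day0. The day groups did not overlap. Hk1 was 2.59-fold lower at day 6 in IL-13 pre-treated (log2 fold change -1.37, SE 0.12, edgeR adjusted p = 5.96e-09) and 2.34-fold lower in untreated cells (log2 fold change -1.22, SE 0.12, edgeR adjusted p = 3.05e-08). On the authors' TPM scale, which corrects for gene length, the summed level of Hk1 and Hk2 was 128 ± 16.3 TPM in IL13_day6, 146 ± 4.88 in untreated_day6, 121 ± 2.28 in IL13_day0 and 110.3 ± 5.95 in untreated_day0 (SD, n = 4 each). Hk2 made up 68.6 ± 4.23% of it in IL13_day6, 75.6 ± 2.66% in untreated_day6, 6.71 ± 1.49% in IL13_day0 and 12.6 ± 1.23% in untreated_day0. The summed level thus differed far less between the days than its makeup did. Slc2a1, the basal glucose transporter GLUT1, rose less: it averaged 96.2 ± 13.1 CPM in IL13_day6, 87.1 ± 13.7 in untreated_day6, 52.9 ± 1.45 in IL13_day0 and 46.7 ± 2.58 in untreated_day0. Its log2 fold change was 0.86 (SE 0.098, edgeR adjusted p = 1.05e-07) in IL-13 pre-treated and 0.90 (SE 0.098, edgeR adjusted p = 6.27e-08) in untreated cells.

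**Figure D2:**
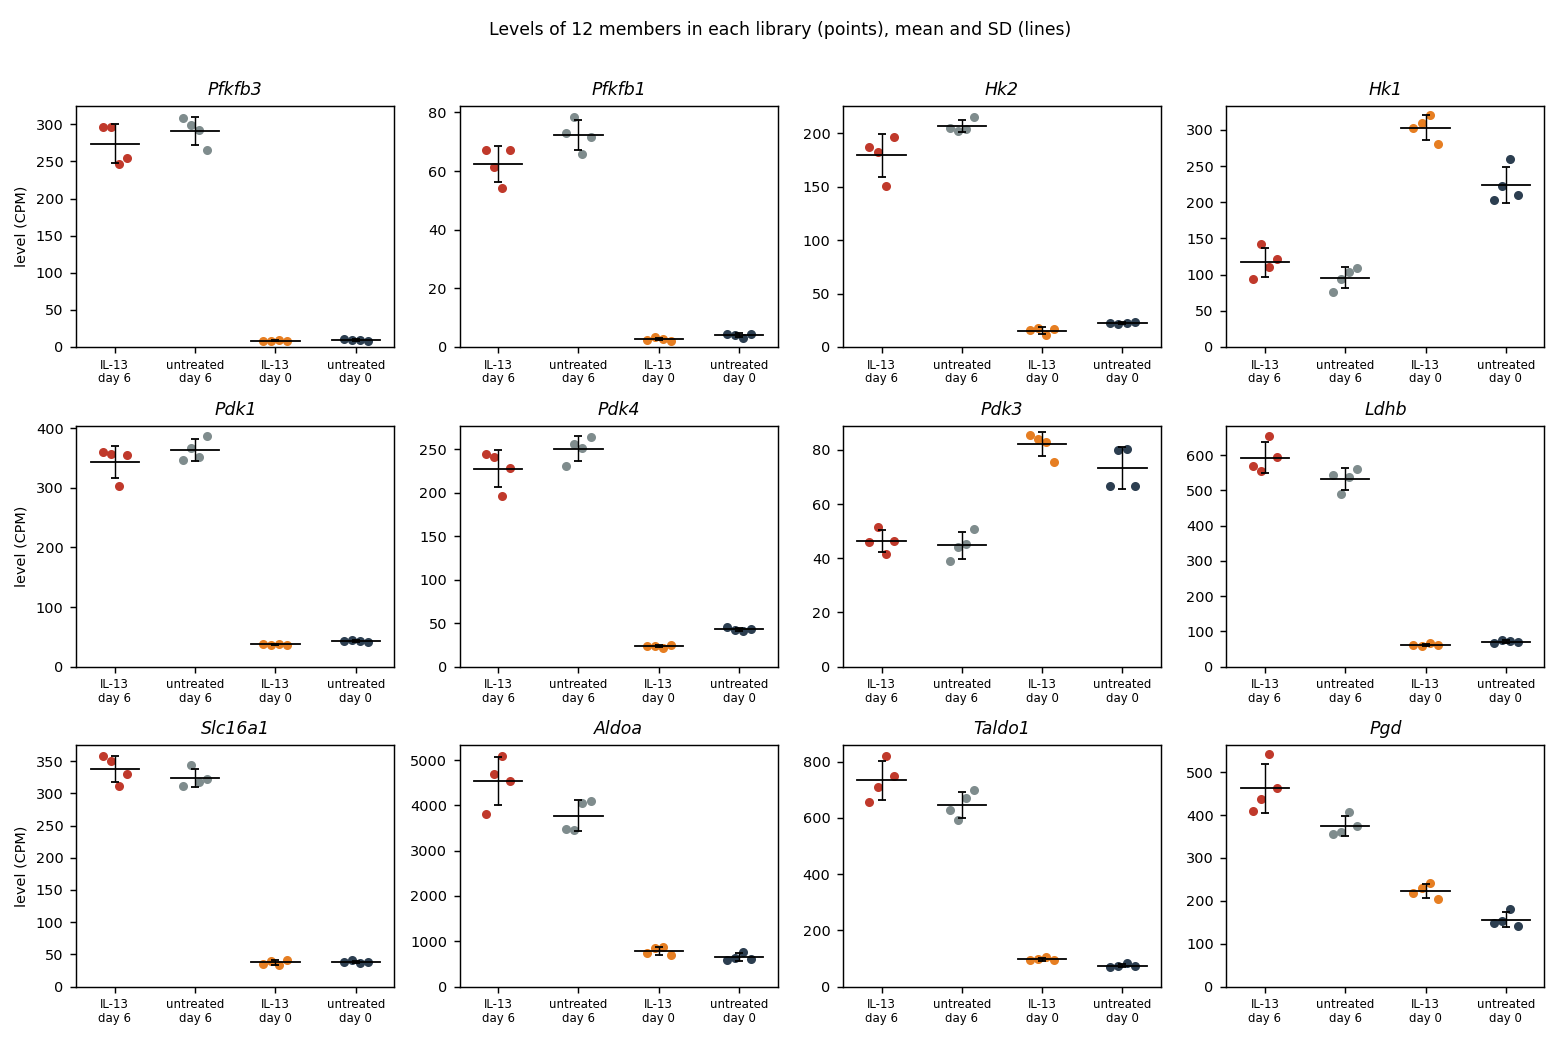
Level in CPM (linear axes from 0) of 12 of the genes in each of the 4 libraries of IL13_day6, untreated_day6, IL13_day0 and untreated_day0, with the mean (wide line) and SD (bar). Pfkfb3, Pfkfb1, Hk2, Pdk1, Pdk4, Ldhb, Slc16a1, Aldoa and Taldo1 are several-fold higher in all day 6 libraries, Pgd is higher by less, and Hk1 and Pdk3 are lower.

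In upper glycolysis 6 of the 7 genes rose in both arms. Aldoa (ENSMUSG00000030695, chromosome 7, 126795234 to 126800751), the aldolase that splits fructose-1,6-bisphosphate, was at 3816, 4687, 5101 and 4543 CPM in IL13_day6 and 3482, 3467, 4061 and 4087 CPM in untreated_day6. In day 0 cells its level was 732, 842, 869 and 690.2 CPM in IL13_day0 and 583, 622, 769 and 618 CPM in untreated_day0. It rose 5.79-fold in IL-13 pre-treated (log2 fold change 2.53, SE 0.11, edgeR adjusted p = 6.50e-15) and 5.82-fold in untreated cells (log2 fold change 2.54, SE 0.11, edgeR adjusted p = 6.17e-15), with no overlap between days. Gpi1, which makes fructose-6-phosphate from glucose-6-phosphate, rose by a log2 fold change of 2.00 (SE 0.094, edgeR adjusted p = 3.92e-14) in IL-13 pre-treated and 2.14 (SE 0.095, edgeR adjusted p = 1.29e-14) in untreated cells. Tpi1, which interconverts the triose phosphates, rose by 1.42 (SE 0.097, edgeR adjusted p = 1.94e-11) and 1.42 (SE 0.097, edgeR adjusted p = 1.97e-11) in those arms. The phosphofructokinase isoenzymes, which commit glucose to glycolysis, moved apart. Pfkl, the liver type, averaged 933 ± 139.7 CPM in IL13_day6, 826 ± 91.9 in untreated_day6, 231 ± 21.1 in IL13_day0 and 213 ± 25.2 in untreated_day0. Its log2 fold change was 2.01 (SE 0.11, edgeR adjusted p = 3.18e-12) in IL-13 pre-treated and 1.96 (SE 0.11, edgeR adjusted p = 4.90e-12) in untreated cells. Pfkp, the platelet type, rose by 1.72 (SE 0.082, edgeR adjusted p = 4.08e-14) and 1.88 (SE 0.082, edgeR adjusted p = 1.01e-14). Pfkm, the muscle type, was the 1 gene of the 35 that passed in neither arm: it ranged over 70.3 to 75.6 CPM in IL13_day6, 61.3 to 77.5 in untreated_day6, 73.2 to 78.6 in IL13_day0 and 69.9 to 78.2 in untreated_day0. Its log2 fold change was -0.045 (SE 0.063, edgeR adjusted p = 0.515) in IL-13 pre-treated and -0.041 (SE 0.063, edgeR adjusted p = 0.553) in untreated cells. Exons of Pfkm overlap other genes on the same strand over 10.2% of their length. By TPM, Pfkl made up 79.4 ± 2.20% of the family in IL13_day6, 78.3 ± 1.37% in untreated_day6, 56.2 ± 1.73% in IL13_day0 and 55.7 ± 1.82% in untreated_day0. Pfkm made up 12.7 ± 1.43%, 13.4 ± 0.943%, 37.0 ± 1.44% and 38.1 ± 1.26% in the same order. Aldoc, the brain aldolase, rose too (2.12 in IL-13 pre-treated and 1.56 in untreated cells). Its share of the aldolase TPM was 0.217 ± 0.0598% in IL13_day6, 0.223 ± 0.0197% in untreated_day6, 0.293 ± 0.0595% in IL13_day0 and 0.446 ± 0.0797% in untreated_day0.

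The widest changes were in the PFKFB enzymes, which make and break fructose-2,6-bisphosphate, the strongest activator of phosphofructokinase. Pfkfb3 (ENSMUSG00000026773, chromosome 2, 11471433 to 11554077), whose product acts almost only as the kinase, was at 297, 296, 247 and 255 CPM in IL13_day6 and 308, 299, 292 and 265 CPM in untreated_day6. Day 0 libraries held it at 7.79, 8.23, 8.96 and 7.86 CPM in IL13_day0 and 10.8, 9.36, 9.21 and 8.46 CPM in untreated_day0. It rose 33.3-fold in IL-13 pre-treated (log2 fold change 5.06, SE 0.090, edgeR adjusted p = 4.20e-21) and 30.8-fold in untreated cells (log2 fold change 4.94, SE 0.088, edgeR adjusted p = 4.34e-21), the largest fold change of the 35 genes in each arm. Pfkfb1 (ENSMUSG00000025271, chromosome X, 150588229 to 150643878), the isoform described in liver, was at 67.2, 61.3, 54.2 and 67.3 CPM in IL13_day6 and 72.9, 78.5, 65.8 and 71.7 CPM in untreated_day6. At day 0 it was at 2.52, 3.23, 2.73 and 2.17 CPM in IL13_day0 and 4.41, 4.19, 3.17 and 4.39 CPM in untreated_day0. It rose 23.4-fold in IL-13 pre-treated (log2 fold change 4.55, SE 0.12, edgeR adjusted p = 9.98e-19) and 17.8-fold in untreated cells (log2 fold change 4.15, SE 0.11, edgeR adjusted p = 1.16e-18). The other two isoforms did not rise. Pfkfb2, the heart isoform, had a log2 fold change of -0.77 (SE 0.20, edgeR adjusted p = 0.00175) in IL-13 pre-treated and -0.29 (SE 0.18, edgeR adjusted p = 0.142) in untreated cells, so it fell in the first arm and did not pass in the second. Pfkfb4, the testis isoform, had -0.14 (SE 0.13, edgeR adjusted p = 0.329) and -0.48 (SE 0.13, edgeR adjusted p = 0.00171) and passed in untreated cells. Without untreated libraries 1 and 4 of day 0 and 1 and 2 of day 6 it was -0.29 (SE 0.18, edgeR adjusted p = 0.155). Exons of Pfkfb2 overlap other genes on the same strand over 17.4% of their length, and 15.9% of its 50-base stretches are also in other genes, so part of its counts could belong to them. The difference between the arms, IL-13 pre-treated minus untreated, did not pass for Pfkfb2, -0.48 (SE 0.27, edgeR adjusted p = 0.343), or Pfkfb4, 0.34 (SE 0.18, edgeR adjusted p = 0.316). By TPM, the family summed to 158 ± 20.0 in IL13_day6, 191 ± 14.8 in untreated_day6, 15.03 ± 1.29 in IL13_day0 and 23.7 ± 5.002 in untreated_day0. Pfkfb3 made up 67.0 ± 2.23%, 64.5 ± 1.86%, 23.1 ± 2.83% and 19.9 ± 3.24% of it in that order. On average Pfkfb4 and Pfkfb2 held more than Pfkfb3 at day 0, but in IL13_day0 library 3 Pfkfb3 held 27.3% and Pfkfb2 26.2%. At day 0 Pfkfb4 made up 33.0 ± 2.41% in IL13_day0 and 32.3 ± 1.11% in untreated_day0, and Pfkfb2 29.8 ± 3.14% and 32.0 ± 3.37% in those groups.

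**Figure D3:**
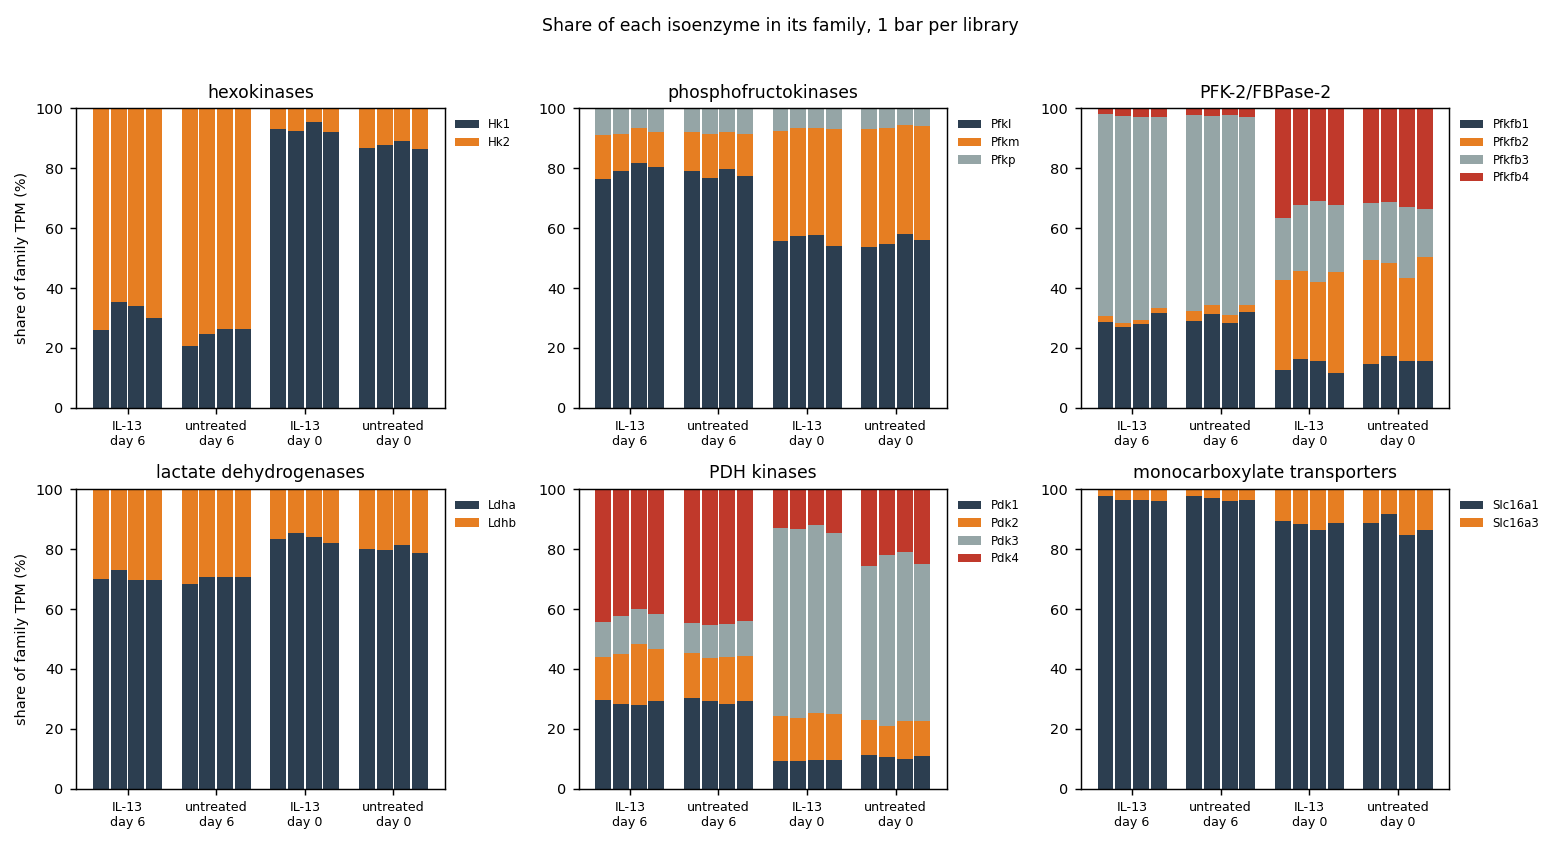
Share of each isoenzyme in the summed TPM of its family (%, stacked to 100), 1 bar for each library, for the hexokinases, phosphofructokinases, PFKFB enzymes (PFK-2/FBPase-2), lactate dehydrogenases, pyruvate dehydrogenase (PDH) kinases and monocarboxylate transporters. Hk2, Pfkfb3, Pfkl, Ldhb, Pdk1 and Pdk4 take larger shares, and Hk1, Pfkm, Pfkfb4 and Pdk3 smaller ones, in all day 6 libraries than in all day 0 libraries.

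In lower glycolysis 5 of the 6 genes rose in both arms. Pgk1 (ENSMUSG00000062070, chromosome X, 106187100 to 106203699), which makes the first ATP of the pathway, was at 2776, 3346, 2893 and 2813 CPM in IL13_day6 and 2339.8, 2536, 2657 and 2944 CPM in untreated_day6. The day 0 levels were 693, 708, 747 and 627 CPM in IL13_day0 and 585, 667, 671 and 546 CPM in untreated_day0. Its rise was 4.26-fold in IL-13 pre-treated (log2 fold change 2.09, SE 0.089, edgeR adjusted p = 7.05e-15) and 4.25-fold in untreated cells (log2 fold change 2.09, SE 0.089, edgeR adjusted p = 7.36e-15). Pgam1, which moves the phosphate of 3-phosphoglycerate, rose by a log2 fold change of 1.61 (SE 0.075, edgeR adjusted p = 2.97e-14) and 1.53 (SE 0.075, edgeR adjusted p = 6.47e-14) in those arms. Eno1, which makes phosphoenolpyruvate, rose by 1.30 (SE 0.12, edgeR adjusted p = 2.61e-09) and 1.24 (SE 0.12, edgeR adjusted p = 5.22e-09). Gapdh, which oxidizes the triose phosphate, rose by 1.18 (SE 0.12, edgeR adjusted p = 7.16e-09) and 1.34 (SE 0.12, edgeR adjusted p = 1.09e-09). Pkm, the pyruvate kinase outside liver and red cells, rose least of the 29: it was at 2685, 3453, 3323 and 3117 CPM in IL13_day6 and 2559.6, 2631, 3015 and 3026 CPM in untreated_day6. In day 0 cells its level was 1833, 2052, 2125 and 1722 CPM in IL13_day0 and 1553, 1611, 1886 and 1543 CPM in untreated_day0. The log2 fold change was 0.70 (SE 0.093, edgeR adjusted p = 6.36e-07) in IL-13 pre-treated and 0.77 (SE 0.093, edgeR adjusted p = 1.77e-07) in untreated cells. Its 2 splice forms are counted as 1 gene here. Eno2, the neuronal enolase, fell, from a level that was low at both days: it was at 2.04, 1.24, 1.34 and 2.16 CPM in IL13_day6 and 3.67, 3.74, 2.64 and 3.54 CPM in untreated_day6. Day 0 libraries held it at 6.11, 6.02, 6.41 and 6.01 CPM in IL13_day0 and 9.53, 7.15, 6.04 and 8.51 CPM in untreated_day0 (-1.84 and -1.20 on the log2 scale in IL-13 pre-treated and untreated cells). Of the TPM of both enolases, Eno1 made up 99.9 ± 0.0235% in IL13_day6, 99.9 ± 0.0345% in untreated_day6, 99.5 ± 0.0636% in IL13_day0 and 99.2 ± 0.226% in untreated_day0. Several of these genes share sequence with other genes, so that their counts could be split or gained. Of all 50-base stretches of the transcripts, 53.9% were also in other genes for Pgk1, 36.2% for Pgam1, 25.99% for Eno1, 25.8% for Pkm and 24.7% for Gapdh. Exons of Pkm also overlap those of Gm49759 on the same strand over 15.3% of their length.

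All 4 lactate genes rose. Ldhb (ENSMUSG00000030246, chromosome 6, 142490249 to 142507957), the subunit of the lactate dehydrogenase form found in oxidative tissues, was at 569, 555, 654 and 594 CPM in IL13_day6 and 542, 489, 537 and 561 CPM in untreated_day6. At day 0 it was at 61.8, 57.7, 66.0 and 62.8 CPM in IL13_day0 and 65.9, 76.5, 72.6 and 70.6 CPM in untreated_day0. It rose 9.55-fold in IL-13 pre-treated (log2 fold change 3.25, SE 0.070, edgeR adjusted p = 6.75e-20) and 7.46-fold in untreated cells (log2 fold change 2.90, SE 0.068, edgeR adjusted p = 3.14e-19). Ldha (ENSMUSG00000063229, chromosome 7, 46841475 to 46855627), the subunit of the muscle form, was at 2786, 3155, 3193 and 2894 CPM in IL13_day6 and 2481, 2497, 2741 and 2860.4 CPM in untreated_day6. The day 0 levels were 654, 715, 742 and 607 CPM in IL13_day0 and 557, 637, 674 and 552 CPM in untreated_day0. Its rise was smaller, 4.42-fold (log2 fold change 2.15, SE 0.085, edgeR adjusted p = 1.78e-15) and 4.37-fold (log2 fold change 2.13, SE 0.085, edgeR adjusted p = 1.96e-15), and Ldha remained the more abundant subunit per length. Of the 50-base stretches of Ldhb 21.0% are also in other genes, among them Gm5514. By TPM, Ldhb made up 29.4 ± 1.56% of both in IL13_day6, 29.8 ± 1.16% in untreated_day6, 16.2 ± 1.42% in IL13_day0 and 20.0 ± 1.13% in untreated_day0. Slc16a1 (ENSMUSG00000032902, chromosome 3, 104638668 to 104658462), the lactate and pyruvate carrier MCT1, was at 358, 350.0, 312 and 331 CPM in IL13_day6 and 311, 343, 318 and 322 CPM in untreated_day6. In day 0 cells its level was 35.5, 39.3, 33.9 and 40.7 CPM in IL13_day0 and 38.7, 40.8, 37.1 and 37.5 CPM in untreated_day0. It rose 9.04-fold (log2 fold change 3.18, SE 0.067, edgeR adjusted p = 5.68e-20) and 8.40-fold (log2 fold change 3.07, SE 0.067, edgeR adjusted p = 8.46e-20) in IL-13 pre-treated and untreated cells. Slc16a3, the export carrier MCT4, stayed low, at 14.2 ± 2.51 CPM in IL13_day6, 12.8 ± 2.83 in untreated_day6, 5.99 ± 0.613 in IL13_day0 and 6.38 ± 1.52 in untreated_day0. Its log2 fold change was 1.24 (SE 0.18, edgeR adjusted p = 3.39e-06) in IL-13 pre-treated and 1.00 (SE 0.18, edgeR adjusted p = 4.15e-05) in untreated cells.

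The kinases that switch off pyruvate dehydrogenase rose except for Pdk3. Pdk1 (ENSMUSG00000006494, chromosome 2, 71873224 to 71903858) was at 359, 356, 303 and 355 CPM in IL13_day6 and 346, 367, 352 and 387 CPM in untreated_day6. Day 0 libraries held it at 37.8, 36.9, 38.0 and 36.9 CPM in IL13_day0 and 43.9, 45.6, 42.9 and 42.3 CPM in untreated_day0. It rose 9.18-fold in IL-13 pre-treated (log2 fold change 3.20, SE 0.063, edgeR adjusted p = 1.65e-20) and 8.31-fold in untreated cells (log2 fold change 3.06, SE 0.062, edgeR adjusted p = 2.65e-20). Pdk4 (ENSMUSG00000019577, chromosome 6, 5483351 to 5496309), the isoform raised by fasting and fatty acids in other tissues, was at 244, 241, 197 and 229 CPM in IL13_day6 and 231, 256, 252 and 264 CPM in untreated_day6. At day 0 it was at 24.4, 24.1, 21.5 and 25.1 CPM in IL13_day0 and 45.2, 42.4, 40.9 and 43.7 CPM in untreated_day0. The day 6 groups overlap and the day 0 groups do not. The rise was 9.58-fold in IL-13 pre-treated (log2 fold change 3.26, SE 0.075, edgeR adjusted p = 2.14e-19) and 5.82-fold in untreated cells (log2 fold change 2.54, SE 0.071, edgeR adjusted p = 5.54e-18). Pdk2, the most widespread isoform, rose by a log2 fold change of 1.76 (SE 0.083, edgeR adjusted p = 3.55e-14) and 1.98 (SE 0.084, edgeR adjusted p = 6.08e-15) in those arms. Pdk3 was at 45.8, 51.6, 41.5 and 46.4 CPM in IL13_day6 and 38.8, 44.1, 45.3 and 50.9 CPM in untreated_day6. The day 0 levels were 85.6, 84.2, 83.0 and 75.5 CPM in IL13_day0 and 66.6, 80.0, 80.1 and 66.5 CPM in untreated_day0. It fell in both arms, with a log2 fold change of -0.82 (SE 0.085, edgeR adjusted p = 1.71e-08) in IL-13 pre-treated and -0.71 (SE 0.085, edgeR adjusted p = 1.72e-07) in untreated cells. By TPM, Pdk3 held 11.8 ± 0.475% of the family in IL13_day6, 10.9 ± 0.576% in untreated_day6, 62.2 ± 1.29% in IL13_day0 and 54.3 ± 2.80% in untreated_day0. Pdk4 held 42.2 ± 1.84%, 44.8 ± 0.582%, 13.2 ± 1.13% and 23.4 ± 2.24% in the same order. The most abundant kinase transcript per length was therefore Pdk4 at day 6 and Pdk3 at day 0.

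All 7 pentose phosphate genes rose in both arms, with log2 fold changes of 0.90 to 2.91 in IL-13 pre-treated and 1.15 to 3.12 in untreated cells. Taldo1 (ENSMUSG00000025503, chromosome 7, 141392199 to 141402968), a sugar-shuffling enzyme of the non-oxidative branch, led: it was at 655, 709, 820.0 and 747 CPM in IL13_day6 and 627, 594, 669 and 698 CPM in untreated_day6. In day 0 cells its level was 94.9, 96.7, 104 and 92.7 CPM in IL13_day0 and 70.4, 71.9, 83.1 and 73.0 CPM in untreated_day0. Its rise was 7.54-fold in IL-13 pre-treated (log2 fold change 2.91, SE 0.077, edgeR adjusted p = 2.12e-18) and 8.67-fold in untreated cells (log2 fold change 3.12, SE 0.078, edgeR adjusted p = 8.59e-19). G6pdx (ENSMUSG00000031400, chromosome X, 74409483 to 74429194), the first and rate-limiting step and a source of NADPH, was at 631, 622, 692 and 639 CPM in IL13_day6 and 528, 519, 577 and 565 CPM in untreated_day6. Day 0 libraries held it at 161, 165, 173 and 151 CPM in IL13_day0 and 124, 140.5, 158 and 118 CPM in untreated_day0. It rose 3.97-fold (log2 fold change 1.99, SE 0.078, edgeR adjusted p = 1.66e-15) and 4.05-fold (log2 fold change 2.02, SE 0.078, edgeR adjusted p = 1.33e-15) in those arms. Pgd, the other NADPH-yielding dehydrogenase of the pathway, rose less, by a log2 fold change of 1.05 (SE 0.087, edgeR adjusted p = 5.34e-10) in IL-13 pre-treated and 1.27 (SE 0.087, edgeR adjusted p = 3.03e-11) in untreated cells. Pgls, the lactonase between them, rose by 0.90 (SE 0.11, edgeR adjusted p = 3.68e-07) and 1.15 (SE 0.11, edgeR adjusted p = 1.37e-08). Of the pentose isomerizing enzymes, Rpia rose by 2.20 (SE 0.059, edgeR adjusted p = 2.38e-18) and 2.15 (SE 0.059, edgeR adjusted p = 3.49e-18). Rpe rose by 1.12 (SE 0.067, edgeR adjusted p = 2.02e-12) and 1.24 (SE 0.066, edgeR adjusted p = 3.12e-13). Tkt, the transketolase that works beside transaldolase, rose by 1.26 (SE 0.11, edgeR adjusted p = 1.65e-09) and 1.37 (SE 0.11, edgeR adjusted p = 5.05e-10). Exons of Pgls overlap those of Fam129c on the same strand over 20.6% of their length, and exons of Rpe, G6pdx and Gpi1 overlap genes on the other strand over 17.9%, 13.6% and 11.5%, so part of their counts could belong to the neighbour.

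Set per length on the authors' TPM scale, Gapdh was the most abundant of the 35 transcripts in all 4 groups, at 7022 ± 718 TPM in IL13_day6, 6307 ± 419.6 in untreated_day6, 3366 ± 322 in IL13_day0 and 2874 ± 296 in untreated_day0. At day 6 it was followed by Aldoa (4536 ± 409.9 and 4132 ± 296 TPM in IL13_day6 and untreated_day6), Pgk1 (3851 ± 444 and 3719.7 ± 288), Pgam1 (3029 ± 245 and 2981 ± 196) and Ldha (2649 ± 164 and 2547 ± 128). At day 0 the next were Pkm (1227 ± 66.8 and 1213 ± 63.7 TPM in IL13_day0 and untreated_day0) and Pgam1 (1081 ± 25.7 and 1188 ± 35.2), whose values in untreated_day0 lie within each other's SD. The lowest transcript was Eno2 at day 6 (1.05 ± 0.305 and 2.31 ± 0.378 TPM), whereas at day 0 the lowest were Pfkfb1 (2.10 ± 0.293 TPM in IL13_day0 and 3.73 ± 0.703 in untreated_day0) and Aldoc (2.48 ± 0.345 and 3.64 ± 0.417). The libraries of both overlapped in each day 0 group, so their order is not resolved. The 8 most abundant transcripts were the same at both days, namely Gapdh, Aldoa, Pgk1, Pgam1, Ldha, Tpi1, Pkm and Eno1. TPM was made by the authors, in 1 table for each day, so levels set across days rest on their scaling too.

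The other genes of the pathway differed by list between the days. Of the 10 genes of mitochondrial pyruvate entry and the pyruvate dehydrogenase complex, 10 rose in IL-13 pre-treated and 9 in untreated cells, against 40.6% and 41.5% of all tested genes, and their median log2 fold changes were 2.84 and 3.02. Pdhb, a subunit of the complex, was at 1001 ± 22.0 CPM in IL13_day6, 979.6 ± 40.8 in untreated_day6, 73.7 ± 1.62 in IL13_day0 and 63.6 ± 2.77 in untreated_day0. Mpc1, a subunit of the pyruvate carrier, was at 416 ± 35.4, 347 ± 17.7, 40.1 ± 2.37 and 28.8 ± 1.18 CPM in that order. The carrier and the complex thus rose alongside the kinases that restrain the complex. Of 30 other glycolytic and gluconeogenic enzymes 19 were tested, of which 9 rose and 5 fell in each arm, the rises being close to those shares of all tested genes. Their median log2 fold changes were 0.18 in IL-13 pre-treated and 0.19 in untreated cells. Pcx, pyruvate carboxylase, was at 2123 ± 268 CPM in IL13_day6, 1945 ± 94.4 in untreated_day6, 109 ± 5.99 in IL13_day0 and 45.0 ± 5.06 in untreated_day0. Gpd1, which makes glycerol-3-phosphate, was at 6258 ± 1009, 5323 ± 432, 1.02 ± 0.263 and 0.456 ± 0.195 CPM in the same order. Slc2a4, the insulin-regulated transporter GLUT4, was at 194 ± 11.1, 193 ± 11.02, 0.155 ± 0.106 and 0.263 ± 0.0988 CPM in the same order. Of 8 tested further pentose and ribose genes, 4 rose and 2 fell in IL-13 pre-treated cells, and 5 rose and 2 fell in untreated cells, with medians of 0.21 and 0.30. Of 18 regulators of glycolytic genes, 13 rose and 2 fell in IL-13 pre-treated cells and 12 rose and 2 fell in untreated cells, with medians of 0.93 and 1.06. Egln3, a prolyl hydroxylase that marks hypoxia-inducible factors for destruction and is itself their target, was at 468 ± 46.1 CPM in IL13_day6, 404 ± 42.7 in untreated_day6, 3.88 ± 0.571 in IL13_day0 and 4.79 ± 0.691 in untreated_day0. Epas1, which encodes HIF-2 alpha, rose by 2.23 (SE 0.080, edgeR adjusted p = 3.37e-16) and 3.02 (SE 0.083, edgeR adjusted p = 3.68e-18) on the log2 scale in IL-13 pre-treated and untreated cells. Of 13 tested targets of hypoxia-inducible factors outside glycolysis, 10 rose and 3 fell in each arm, with medians of 1.44 and 1.20. Bnip3, a mitophagy receptor, was at 935 ± 95.2 CPM in IL13_day6, 1015 ± 129.7 in untreated_day6, 33.7 ± 1.78 in IL13_day0 and 40.3 ± 3.44 in untreated_day0.

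At day 0, IL-13 pre-treated cells were compared with untreated cells to see what the cytokine did to these genes before differentiation. Of the 35 genes, 14 rose and 8 fell in IL13_day0, against 23.7% of all tested genes that rose and 24.2% that fell. Their median log2 fold change was 0.15, where that of all tested genes was -0.011. Every one of the 22 changes was under 2-fold. Scaling by total counts alone moved the median of all tested genes to -0.13. Their split moved to 1682 higher and 4523 lower from 2912 and 2969. Of the 35, 8 then rose and 11 fell. The rises of Aldoa, G6pdx, Pfkp, Pkm, Slc2a1 and Tpi1 lost their call, and Aldoc, Pfkfb3 and Rpe were called as falls. When the untreated libraries richest in nuclear RNA (1 and 4) were dropped, 6 of the 35 rose and 4 fell. Of all tested genes 1811 then rose and 1674 fell. The median log2 fold change of the 35 was then 0.050, where that of all tested genes was 0.00022.

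**Figure D4:**
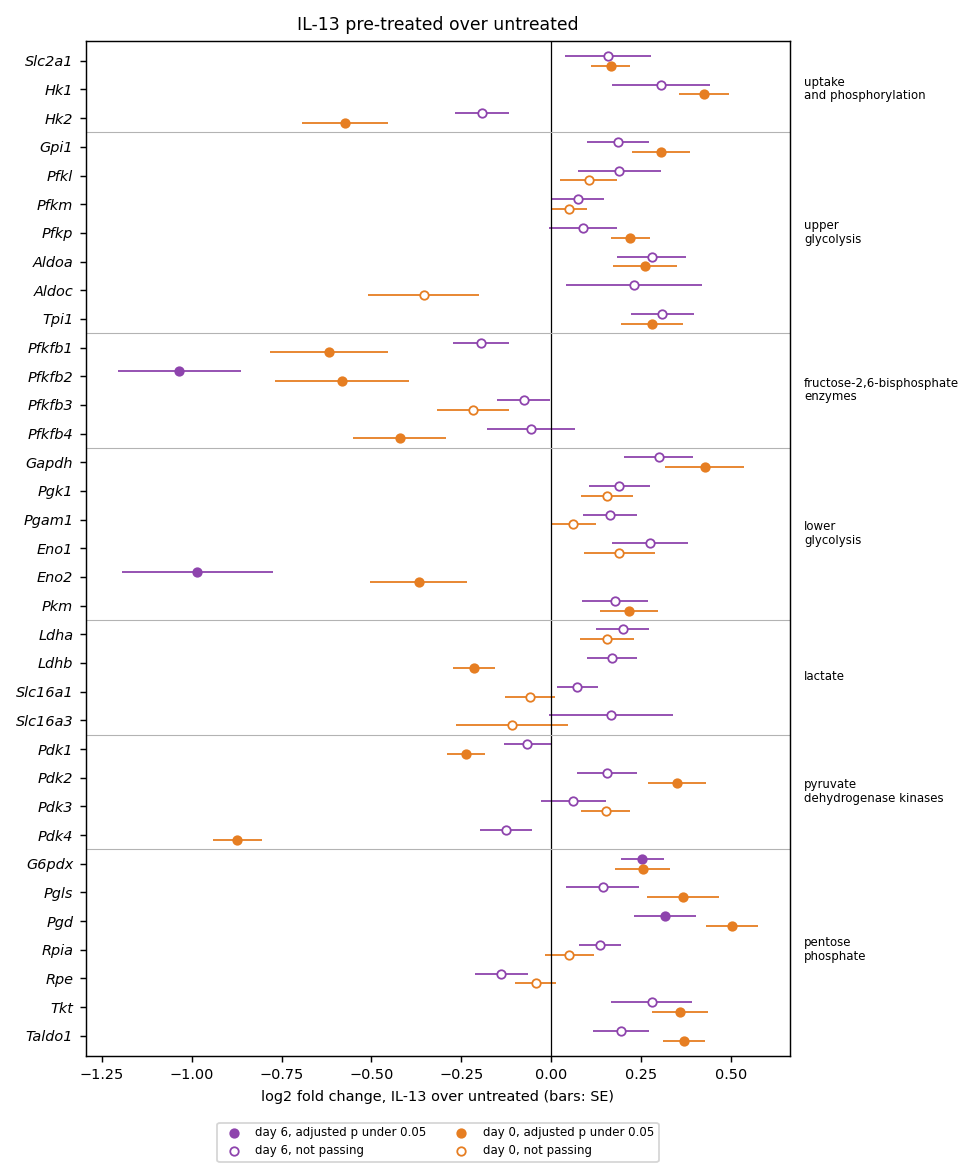
Log2 fold change of each of the 35 genes, IL-13 pre-treated over untreated, at day 6 (purple) and day 0 (orange), with the standard error as a bar and filled points for an edgeR adjusted p under 0.05; horizontal lines part the steps of the pathway. At day 0, 14 filled points lie right of 0 and 8 left of it, the farthest being Pdk4 at -0.87; at day 6, G6pdx and Pgd are filled right of 0 and Pfkfb2 and Eno2 left of it.

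Of the 7 pentose phosphate genes 5 rose, and the median log2 fold change of the 7 was 0.36. Pgd, in the oxidative branch, was at 217, 229, 242 and 204 CPM in IL13_day0 against 148, 153, 182 and 141 CPM in untreated_day0, with no overlap (log2 fold change 0.50, SE 0.072, edgeR adjusted p = 7.17e-05). Taldo1 was at 94.9, 96.7, 104 and 92.7 CPM in IL13_day0 against 70.4, 71.9, 83.1 and 73.0 CPM in untreated_day0, also without overlap (log2 fold change 0.37, SE 0.058, edgeR adjusted p = 0.000148). Tkt was at 474, 523, 547 and 461 CPM in IL13_day0 against 357, 359.7, 455 and 379.6 CPM in untreated_day0 (log2 fold change 0.36, SE 0.077, edgeR adjusted p = 0.00180). The lowest IL13_day0 library of Tkt lay just above the highest untreated one. Pgls (log2 fold change 0.37, SE 0.10, edgeR adjusted p = 0.00814) and G6pdx (log2 fold change 0.25, SE 0.077, edgeR adjusted p = 0.0146) rose with overlapping libraries, and Rpia and Rpe did not pass.

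Among the glycolytic genes, Hk1 rose and Hk2 fell. Hk1 was at 302, 309, 321 and 280.2 CPM in IL13_day0 against 204, 222, 260.3 and 209.5 CPM in untreated_day0 (log2 fold change 0.42, SE 0.069, edgeR adjusted p = 0.000203). Hk2 was at 15.6, 17.5, 10.7 and 16.9 CPM in IL13_day0 against 22.0, 21.5, 22.5 and 23.2 CPM in untreated_day0 (log2 fold change -0.57, SE 0.12, edgeR adjusted p = 0.00169). Neither gene's groups overlapped. The share of Hk2 in the TPM of both was 6.71 ± 1.49% in IL13_day0 and 12.6 ± 1.23% in untreated_day0. Gapdh was at 4087, 4672, 5081 and 3710.2 CPM in IL13_day0 against 2876, 3153, 3954 and 2957 CPM in untreated_day0 (log2 fold change 0.43, SE 0.11, edgeR adjusted p = 0.00611). One untreated library, replicate 3, overlapped the IL-13 range for Gapdh. Pfkp rose by 0.22 (SE 0.055, edgeR adjusted p = 0.00447) and Slc2a1 by 0.17 (SE 0.054, edgeR adjusted p = 0.0206) without overlap of their groups. Neither call held with total count scaling. On the authors' TPM scale Pfkp averaged 13.3 ± 0.841 in IL13_day0 and 13.1 ± 0.664 in untreated_day0, and Slc2a1 48.0 ± 2.43 and 49.1 ± 1.71. Gpi1, Aldoa, Tpi1 and Pkm rose by 0.30, 0.26, 0.28 and 0.22 on the log2 scale with overlapping groups. In upper and lower glycolysis together 6 genes rose and 1, Eno2, fell.

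The genes that fell included 3 of the 4 PFKFB isoforms and Pdk1 and Pdk4 of the kinases. Pdk4 was at 24.4, 24.1, 21.5 and 25.1 CPM in IL13_day0 against 45.2, 42.4, 40.9 and 43.7 CPM in untreated_day0. The highest IL-13 library was far under the lowest untreated one, and this 1.83-fold fall (log2 fold change -0.87, SE 0.067, edgeR adjusted p = 8.95e-08) was the largest change of the 35 genes at day 0. Pdk1 was at 37.8, 36.9, 38.0 and 36.9 CPM in IL13_day0 against 43.9, 45.6, 42.9 and 42.3 CPM in untreated_day0, without overlap (log2 fold change -0.24, SE 0.053, edgeR adjusted p = 0.00208). Unlike them Pdk2 rose: it averaged 24.8 ± 1.21 CPM in IL13_day0 and 19.3 ± 2.19 CPM in untreated_day0, without overlap (log2 fold change 0.35, SE 0.080, edgeR adjusted p = 0.00258). Pdk4 thus held 13.2 ± 1.13% of the kinase TPM in IL13_day0 and 23.4 ± 2.24% in untreated_day0. Pfkfb1 had a log2 fold change of -0.62 (SE 0.16, edgeR adjusted p = 0.00657). Pfkfb2 had -0.58 (SE 0.19, edgeR adjusted p = 0.0243) and Pfkfb4 -0.42 (SE 0.13, edgeR adjusted p = 0.0145). All 3 are low transcripts, under 20 CPM in every day 0 library. Ldhb was at 61.8, 57.7, 66.0 and 62.8 CPM in IL13_day0 against 65.9, 76.5, 72.6 and 70.6 CPM in untreated_day0 (log2 fold change -0.21, SE 0.058, edgeR adjusted p = 0.00678). Its highest IL-13 library was level with its lowest untreated one. Ldha, Slc16a1 and Slc16a3 did not pass. Eno2 fell too, with -0.37 (SE 0.14, edgeR adjusted p = 0.0349).

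Of the 10 genes whose groups did not overlap, 7 were higher (20.9% of all tested genes) and 3 lower (19.5%). Leaving out each library in turn, 10 of the 14 rises (Hk1, Gpi1, Pfkp, Gapdh, Pdk2, G6pdx, Pgls, Pgd, Tkt and Taldo1) and 5 of the 8 falls (Hk2, Pfkfb1, Ldhb, Pdk1 and Pdk4) passed every time. Calls over all tested genes numbered 4823 to 6593 in these runs, against 5881 with all libraries. The share of all called genes that passed every time is not given here. Tpi1 lost its call without untreated library 1 (edgeR adjusted p = 0.0501). Slc2a1 lost it without untreated library 1 or IL-13 library 1 or 2 (edgeR adjusted p up to 0.0664), and Aldoa and Pkm without untreated library 1, 2 or 4 or IL-13 library 2 or 3 (up to 0.0880 and 0.122). Pfkfb4 lost it without untreated library 1 or 4 or IL-13 library 3 (up to 0.0549), Pfkfb2 without these or IL-13 library 2 (up to 0.0704), and Eno2 without untreated library 1 or 4 or any of the IL-13 libraries (up to 0.148). Without untreated libraries 1 and 4 the genes that passed were Hk1, Pdk2, Pfkp, Pgd, Taldo1 and Tkt among the rises, and Hk2, Ldhb, Pdk1 and Pdk4 among the falls. Pdk4 was then -0.81 (SE 0.081, edgeR adjusted p = 7.06e-06) and Pgd 0.41 (SE 0.081, edgeR adjusted p = 0.00263) on the log2 scale. Of the calls that were then lost, 7 had shrunk by more than 1.5 times. Pfkfb2 was at -0.22 (SE 0.15, edgeR adjusted p = 0.281), Pfkfb4 at -0.19 (SE 0.13, edgeR adjusted p = 0.311) and Eno2 at -0.10 (SE 0.13, edgeR adjusted p = 0.588). G6pdx was at 0.12 (SE 0.069, edgeR adjusted p = 0.214) and Tpi1 at 0.17 (SE 0.094, edgeR adjusted p = 0.197). Aldoa was at 0.17 (SE 0.11, edgeR adjusted p = 0.259) and Pkm at 0.14 (SE 0.095, edgeR adjusted p = 0.283).

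**Figure D5:**
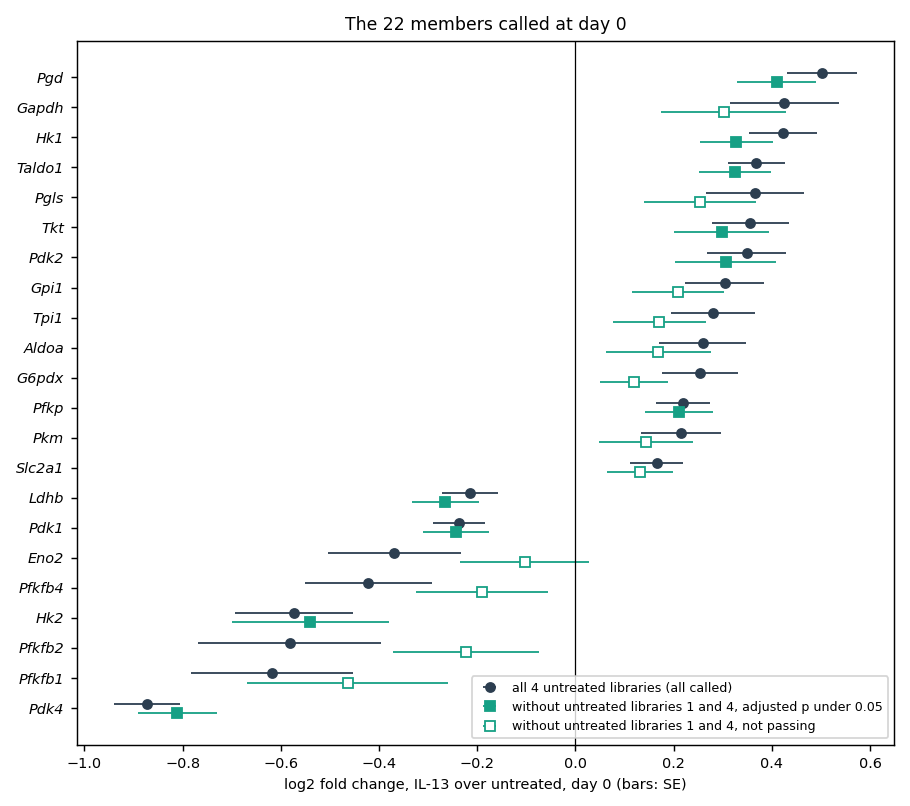
Log2 fold change at day 0, IL-13 pre-treated over untreated, of the 22 genes that passed, with all 4 untreated libraries (circles) and after dropping untreated libraries 1 and 4, the richest in nuclear RNA (squares, filled for an edgeR adjusted p under 0.05); bars are standard errors. All 22 squares lie on the same side of 0 as their circles, and 10 are filled, Pdk4 the farthest from 0 in both.

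At day 6 the same comparison asked whether the pre-treatment left a trace in differentiated cells. Of the 35 genes, 2 rose and 2 fell in IL13_day6, against 2.21% of all tested genes that rose and 4.34% that fell. Their median log2 fold change was 0.16, where that of all tested genes was 0.0088. G6pdx was at 631, 622, 692 and 639 CPM in IL13_day6 against 528, 519, 577 and 565 CPM in untreated_day6, without overlap (log2 fold change 0.25, SE 0.061, edgeR adjusted p = 0.0353). Pgd was at 409, 437, 543 and 462 CPM in IL13_day6 against 357, 361, 408 and 375 CPM in untreated_day6 (log2 fold change 0.32, SE 0.086, edgeR adjusted p = 0.0489). The lowest IL-13 library of Pgd lay barely above the highest untreated one. Pfkfb2 was at 7.54, 5.64, 4.95 and 5.65 CPM in IL13_day6 against 14.9, 14.2, 10.95 and 9.22 CPM in untreated_day6 (log2 fold change -1.03, SE 0.17, edgeR adjusted p = 0.0115). Eno2 was at 2.04, 1.24, 1.34 and 2.16 CPM in IL13_day6 against 3.67, 3.74, 2.64 and 3.54 CPM in untreated_day6 (log2 fold change -0.98, SE 0.21, edgeR adjusted p = 0.0249). Both are low transcripts, and their groups did not overlap. In all, 3 genes were higher and 3 lower without overlap, against 7.21% and 8.28% of all tested genes. Tpi1 was the nearest to the threshold of those that did not pass (log2 fold change 0.31, SE 0.088, edgeR adjusted p = 0.0546). An unadjusted p under 0.05 was found for 17 of the 35 genes and for 3325 of the 12352 tested genes. With total count scaling all tested genes split into 53 higher and 1032 lower, against 273 and 536. Of the 35 edgeR then called 0 as higher and 2 as lower. Each of the 4 calls was lost without IL-13 library 2 or untreated library 2. There edgeR called 0 of the 35, and 62 and 60 of all tested genes. G6pdx and Pgd were also lost without IL-13 library 3 or 4 or untreated library 1, Pgd without untreated library 3 or 4 too, and Eno2 without IL-13 library 3 or untreated library 1, with edgeR adjusted p up to 0.128 for G6pdx, 0.158 for Pgd, 0.0944 for Eno2 and 0.0576 for Pfkfb2. Without IL-13 library 1, 10 of the 35 rose and 2 fell, where 988 and 1340 of all tested genes did. With the replicate number as a block, 13 of the 35 rose and 4 fell, where 1342 and 1470 of all tested genes did. When the untreated libraries richest in nuclear RNA (1 and 2) were dropped, edgeR called 0 of the 35 and 2 of all tested genes. G6pdx was then 0.18 (SE 0.076, edgeR adjusted p = 0.516).

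The test of whether the IL-13 difference itself changed between the days passed for 2 of the 35 genes, both upward. Of all tested genes 3.12% passed upward and 4.95% downward (410 and 651 genes, but 509 and 505 with RLE scaling and 516 and 498 with total count scaling). Pdk4 had a log2 fold change, IL-13 pre-treated over untreated, of -0.13 (SE 0.072, edgeR adjusted p = 0.277) at day 6 and -0.87 at day 0. The difference of 0.72 (SE 0.099, edgeR adjusted p = 3.88e-05) passed. Ldhb had 0.17 (SE 0.068, edgeR adjusted p = 0.139) at day 6 and -0.21 at day 0, a difference of 0.36 (SE 0.092, edgeR adjusted p = 0.0175). Both passed whichever library was left out. Without the untreated libraries that held most nuclear RNA, Pdk4 was at 0.65 (SE 0.12, edgeR adjusted p = 0.00522) and Ldhb at 0.40 (SE 0.11, edgeR adjusted p = 0.0506), so Ldhb then missed the threshold. Counting these 2, 6 of the 35 genes had an unadjusted p under 0.05, against 2684 of the 13157 tested genes. The 4 of them beyond Pdk4 and Ldhb did not pass after adjustment. Their differences were 0.35 (SE 0.15, edgeR adjusted p = 0.168) for Hk2 and 0.39 (SE 0.17, edgeR adjusted p = 0.191) for Pfkfb1. For Aldoc the value was 0.56 (SE 0.26, edgeR adjusted p = 0.231) and for Eno2 -0.64 (SE 0.25, edgeR adjusted p = 0.132). These differences are built from the same libraries as the comparisons within each day.

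The genes around the pathway were read in the same comparisons, in which 23.7% of all tested genes rose and 24.2% fell at day 0, and 2.21% rose and 4.34% fell at day 6. Of the 10 genes of pyruvate entry and the pyruvate dehydrogenase complex, 4 rose and 1 fell at day 0. Dlat, the acetyltransferase subunit, was at 96.9 ± 1.30 CPM in IL13_day0 and 65.3 ± 2.45 in untreated_day0, a log2 fold change of 0.55 (SE 0.047, edgeR adjusted p = 2.53e-07). Mpc1 rose by 0.46 (SE 0.062, edgeR adjusted p = 3.31e-05), while Pdp1, the phosphatase that reactivates the complex, fell (log2 fold change -0.63). At day 6, 2 rose, Mpc1 by 0.27 (SE 0.069, edgeR adjusted p = 0.0412) and its partner Mpc2 by 0.28 (SE 0.073, edgeR adjusted p = 0.0443). Of the 16 tested other glycolytic and gluconeogenic enzymes, 6 rose and 2 fell at day 0, led by Pcx at 109 ± 5.99 CPM in IL13_day0 and 45.0 ± 5.06 in untreated_day0 with a log2 fold change of 1.26 (SE 0.070, edgeR adjusted p = 1.63e-09). Of 17 tested at day 6, 1 rose, Pgm2, phosphoglucomutase, by 0.26 (SE 0.067, edgeR adjusted p = 0.0438). Of 8 further pentose and ribose genes, 4 rose and 1 fell at day 0, and at day 6 Prps1, which makes the ribose donor of nucleotide synthesis, came nearest to passing with 0.20 (SE 0.058, edgeR adjusted p = 0.0591). At day 0, H6pd, the pentose pathway dehydrogenase of the endoplasmic reticulum, rose by 0.32 (SE 0.054, edgeR adjusted p = 0.000240). Prps2, the paralogue of Prps1, fell at day 0, with -0.46 (SE 0.065, edgeR adjusted p = 6.15e-05). Of 16 tested regulators 4 rose and 3 fell at day 0, with a median log2 fold change of 0.0084, so this list was near the shares of all tested genes. Epas1 had a log2 fold change of 0.60 (SE 0.085, edgeR adjusted p = 5.75e-05) and Egln1, another prolyl hydroxylase, 0.55 (SE 0.063, edgeR adjusted p = 8.01e-06). Txnip, a brake on glucose uptake, had -0.52 (SE 0.078, edgeR adjusted p = 0.000125). At day 6 the 1 regulator of 18 that passed was Mlxipl, which encodes the glucose-sensing factor ChREBP, at 57.6 ± 7.96 CPM in IL13_day6 and 107 ± 22.4 in untreated_day6 with a log2 fold change of -0.88 (SE 0.14, edgeR adjusted p = 0.0125). Of 13 tested targets of hypoxia-inducible factors outside glycolysis, 3 rose and 5 fell at day 0 with a median of -0.092, led by Bhlhe40 with 0.67 (SE 0.048, edgeR adjusted p = 3.82e-08) and Adm with -1.01 (SE 0.084, edgeR adjusted p = 2.35e-07). At day 6, 2 of the 13 fell, Vegfa with -0.62 (SE 0.12, edgeR adjusted p = 0.0200) and Kdm3a with -0.46 (SE 0.092, edgeR adjusted p = 0.0207).

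Within a group, the 35 genes varied with an SD of 10.2% of the mean in IL13_day6, 8.59% in untreated_day6, 7.26% in IL13_day0 and 11.1% in untreated_day0 (medians over the genes). In each group 1 library was the highest or the lowest of the 4 for most of the 35 genes. In IL13_day6, library 1 was the lowest for 21 genes and had the highest nuclear RNA index of its group, 5.46 log2 CPM, while library 3, with the lowest, 4.89, was the highest for 14 and the lowest for 10. In untreated_day6, library 1 was the lowest for 21 with the highest index, 6.45, while library 4, with 5.99, was the highest for 21, and library 3, with the lowest index, 5.79, for 8. In IL13_day0, library 3 was the highest for 23 with the lowest index, 4.57, and library 4 the lowest for 22 with the second-lowest, 4.71. In untreated_day0, library 3 was the highest for 21 with the lowest index, 5.03, and library 4 the lowest for 13 with 5.71, under the 5.80 of library 1. The index thus lined up with the levels of some of these libraries and not of others. The part of nuclear RNA in these levels was not tested.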

How the data were processed

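The deposited tables hold raw read counts per gene and, beside them, TPM (a level scaled for gene length and library size), both made by the authors, in 1 table for each day. The kit was Illumina TruSeq Stranded mRNA, per the labels' protocols, and the genome build was mm10, per the submitters' processing notes. The aligner, the counting program and its strand setting are not stated in the sources that were used. The 32 columns of RPKM and CPM that the tables also hold for these libraries were not used.

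Counts were tested with edgeR 4.0.16 in R 4.3.3 (TMM scaling, filterByExpr at its default count minimum, 10, and total, 15, robust quasi-likelihood fit, Benjamini-Hochberg adjustment over all tested genes, threshold 0.05). IL-13 pre-treated and untreated libraries were compared within each day in a fit of those 8 libraries, over 12352 genes at day 6 and 12274 at day 0. Day 6 over day 0, and the difference of the IL-13 effects, came from 1 fit of all 16 libraries, over 13157 genes. Standard errors were derived from each log2 fold change and its F statistic (|change| / √F). CPM levels use the TMM scaling of all 16 libraries, and ± is the SD of 4 libraries. TPM was used only for shares and for levels between genes, with no test. On simulated counts the tests found 95.5% (IL-13 at day 0), 94.5% (IL-13 at day 6) and 91.5% (day, untreated cells) of 200 genes changed 2-fold. Of the genes called, 4.02%, 5.50% and 2.66% were false. Smaller changes, as at day 0, were not simulated. In the data more genes were called, 5881, 809 and 10590 in the same order. Changes in so many genes, or a factor shared by libraries, were not simulated either, so these rates need not hold for the data.

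The genes and lists were chosen with earlier results of these data known. All 35 genes are accounted for, and of each other list at most 4 genes with the smallest p per comparison are named. Gene positions are from GENCODE (GRCm38), and the sequences from RefSeq (GRCm38.p6). No pair of libraries agreed within counting noise, so all 16 were kept. Alternatives were RLE and total count scaling, no expression filter, DESeq2 1.42.0, the replicate number as a block, each library left out in turn, and the untreated libraries with most nuclear RNA left out (1 and 2 at day 6, 1 and 4 at day 0).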

Additional observations from a re-analysis of the deposited data

Results flagged for a closer look

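Between the days, the IL-13 effect differed for Pdk4, by 0.72 on the log2 scale (day 6 minus day 0, edgeR adjusted p = 3.88e-05), and for Ldhb, by 0.36 (edgeR adjusted p = 0.0175). Among the 140 sets of 4 libraries (35 genes in 4 groups), 4 held a library that stood apart from the other three by Dixon's test, where chance gives about 5% of sets. Gpi1 was lowest in IL13_day6 library 1, at 1411 CPM, and Pdk1 in IL13_day6 library 3, at 303 CPM. In untreated_day0, library 3 was the highest for Pfkm, at 78.2 CPM, and for Eno1, at 1372 CPM; it also had the lowest nuclear RNA index of its group, whose part in these levels was not tested.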

How the results depend on the processing

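The 29 rises between the days were called in both arms under every alternative run, and between 29 and 29 with any library left out; falls numbered 4 in IL-13 pre-treated and 4 to 5 in untreated cells (all genes 10413 to 10751 and 10434 to 10786). Without 1 library, calls at day 0 numbered 4823 to 6593 (10 to 19 of the 35 higher, 5 to 8 lower), at day 6 60 to 2328 (0 to 10 higher, 0 to 2 lower), and for the difference of the IL-13 effects 836 to 1269 (2 to 5 higher, the 5 without IL13_day6 library 3, 0 lower). The lowest count of falls at day 0, 5, came without untreated library 1 or 4 or IL-13 library 3. Without the untreated libraries with most nuclear RNA, calls were 3485 at day 0 (6 and 4 of the 35), 2 at day 6 (0 and 0) and 545 for the difference (1 higher, Pdk4). At day 6, 1 of the 35 was higher with RLE scaling, 0 with total count scaling, and 4 with DESeq2 (1470 genes called); at day 0, 8 were higher with total count scaling. Whether replicate numbers pair the libraries is not settled. Correlations of same-numbered libraries ran from -0.12 to 0.21, and in no pair of groups did all 4 exceed 0.1. With IL13_day6 and untreated_day6 3 of the 4 did, and 5 of their 8 libraries were closest to their own number. With IL13_day0 and untreated_day0 2 of the 4 did, and 6 of the 8 were closest to their own number. In the other pairs of groups 3 to 5 of 8 were. With the replicate number as a block, calls were 6518 at day 0 (18 of the 35 higher, with Eno1, Ldha, Pdk3 and Pgk1 added, and 8 lower), 2812 at day 6 (13 higher, 4 lower) and 1787 for the difference (2 lower). The cause of these shifts was not tested. No called value changed sign; 18 uncalled ones did. At day 0 these were Pfkl -0.015, Pfkm -0.070, Pgam1 -0.057 and Rpia -0.070 (total count scaling), Pgam1 -0.014 (nuclear-rich libraries out) and Slc16a3 0.020 (untreated library 3 out; -0.24 to 0.020 over the libraries left out). At day 6 they were Pfkm -0.015, Slc16a1 -0.014 and Pdk3 -0.025 (total count scaling), Slc2a1 -0.032, Pfkm -0.028, Pfkp -0.050, Slc16a3 -0.080 and Pdk3 -0.057 (nuclear-rich libraries out), Pfkfb4 0.0038 (IL-13 library 1 out; -0.11 to 0.0038) and Pdk3 -0.00052 (untreated library 1 out; -0.00052 to 0.13). Between days, Pfkm was 0.0078 in untreated cells (nuclear-rich libraries out) and 0.0052 in IL-13 pre-treated cells (IL13_day6 library 1 out; -0.046 to 0.0052). Low transcripts (Eno2, Pfkfb1, Pfkfb2, Pfkfb4, Aldoc, Slc16a3) are the least precise at this depth.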
